A study of Mus musculus with 6 samples.

Results

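The RGS genes encode regulators of G protein signaling, proteins that share an RGS domain. The domain binds an activated G protein alpha subunit and speeds its hydrolysis of GTP, which shortens the signal of a G protein-coupled receptor. In the heart, such receptors pass on adrenergic, muscarinic, endothelin and angiotensin signals, and different RGS proteins act on different alpha subunits. The 10 genes described here, *Rgs2*, *Rgs3*, *Rgs4*, *Rgs5*, *Rgs6*, *Rgs10*, *Rgs12*, *Rgs14*, *Rgs16* and *Rgs19*, were chosen by symbol, and all 10 were found among 19079 genes. They span 4 subfamilies. *Rgs2*, *Rgs3*, *Rgs4*, *Rgs5* and *Rgs16* belong to the R4 subfamily, *Rgs6* to R7, *Rgs10*, *Rgs12* and *Rgs14* to R12, and *Rgs19* to RZ.

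Ventricles of C57BL/6 mice at postnatal day 10 were sequenced from 4 *Runx1* OE mice and 2 Myh6-CreER controls. *Runx1* OE mice carried Myh6-CreER and a Rosa-Runx1 allele, so that a Cre recombinase under the cardiomyocyte promoter of *Myh6* switched on *Runx1* after tamoxifen, and controls carried Myh6-CreER alone. Both groups received tamoxifen at postnatal days 0 and 1, so the comparison concerns the Rosa-Runx1 allele, with Cre and tamoxifen shared. The animals are described as littermates, the tissue as left ventricles in one place and whole ventricles in another, and the RNA came from all cell types of the tissue. *Runx1* was switched on in cardiomyocytes, but these were not isolated. Fewer cells of a type and less RNA per cell therefore cannot be told apart in any value below.

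The unit throughout is the normalized count, a count of reads per gene divided by a size factor of its library. Values of single libraries were not used, since no label pairs them with a sample and levels of *Runx1* were not used to assign groups, so each group is described by the authors' deposited mean, and no difference was tested. The deposited sum, maximum and geometric mean over the 6 libraries limit what single libraries can have held, and these limits take the place of an error. They are given as the lowest and the highest value a library of a group can have. A log2 ratio is that of the *Runx1* OE mean to the control mean. A gene was counted as higher or lower when its means differed at least 1.5-fold, and only the 15181 genes whose mean over the 6 libraries reached 10 normalized counts were considered. The authors' means over 6 libraries added up to 19422828 normalized counts, and the raw depth is not used here. *Runx1* checked the labels, with authors' means of 40.2 normalized counts in control and 16622 in *Runx1* OE ventricles, where every library held at least 5239. *Xist*, which is expressed in female cells, had means of 8.92 normalized counts in control and 4584 in *Runx1* OE ventricles. Control libraries held at most 18.0, the highest *Runx1* OE library 7493 and the lowest between 2.18 and 1089. Both controls thus held little *Xist*, whereas the mean and the limits require that most *Runx1* OE libraries held much of it. The sex of each *Runx1* OE library is not known, and differences of sex and genotype cannot be told apart. No RGS gene of the 10 lies on a sex chromosome.

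*Rgs2* and *Rgs6* were the RGS genes with the lowest ratios in *Runx1* OE ventricles, where their means were 1.98-fold and 2.69-fold lower than in controls. They are 2 of the 9 RGS genes that reached a mean of 10 normalized counts, and none of the 9 was higher by the same fold. Of all 15181 genes, 3.96% were at least 1.5-fold lower and 5.49% at least 1.5-fold higher. The other 7 RGS genes had means within 1.5-fold of each other in the groups, with log2 ratios between -0.25 and 0.30. *Rgs14*, an RGS protein that also carries a Ras-binding region and a GoLoco motif, did not reach a mean of 10 normalized counts.

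The start regions of *Rgs2* and *Rgs6* are shown because these genes had the largest differences between the groups and *Runx1* encodes a factor that binds DNA. Each is the RefSeq window of 250 bases before and 50 bases after the annotated start, on build GRCm38.p6, read along the gene's strand. Capitals mark a match to the core motif of RUNX factors, searched as TGTGGT and TGCGGT on both strands, of which no match overlaps another.
Rgs2, chr1:144004100-144004399, minus strand: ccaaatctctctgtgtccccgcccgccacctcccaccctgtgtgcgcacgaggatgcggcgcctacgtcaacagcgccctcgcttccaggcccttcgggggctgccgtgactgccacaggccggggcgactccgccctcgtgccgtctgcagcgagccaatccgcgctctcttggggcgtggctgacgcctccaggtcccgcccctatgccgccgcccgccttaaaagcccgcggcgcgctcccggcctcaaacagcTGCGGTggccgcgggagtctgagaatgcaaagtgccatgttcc
Rgs6, chr12:82617249-82617548, plus strand: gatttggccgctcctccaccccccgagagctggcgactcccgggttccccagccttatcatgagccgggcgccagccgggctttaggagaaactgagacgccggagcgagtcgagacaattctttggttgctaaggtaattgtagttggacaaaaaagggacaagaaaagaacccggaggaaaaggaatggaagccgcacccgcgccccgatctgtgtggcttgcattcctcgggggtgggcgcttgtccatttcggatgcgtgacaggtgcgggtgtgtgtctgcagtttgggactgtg
The *Rgs2* window has 1 match, the letters TGCGGT, which start at base 8 counted from the annotated start. The *Rgs6* window has none. Of 13 windows for 9 of the RGS genes, that of *Rgs2* is the only 1 with a match, and of all 32851 mouse windows of the same length 22.4% have one. The *Rgs2* window has a GC content of 70.0% and the *Rgs6* window of 58.7%. A match describes the letters only, and RUNX1 binding was not measured in these samples.

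*Rgs2* encodes a small R4 protein that acts mainly on alpha q subunits and is known from mice for its part in the control of blood pressure. Its mean was 1154 normalized counts in control ventricles and 582 in *Runx1* OE ventricles, a log2 ratio of -0.99. A control library can have held between 1121 and 1164 normalized counts, and a *Runx1* OE library between 388 and 825. The highest value of the 6 libraries therefore belonged to a control, and the groups did not overlap. The highest *Runx1* OE library reached at most 73.6% of the lowest control. On the log2 scale, the SD among the 4 *Runx1* OE libraries was between 0.28 and 0.38, so the difference of the means was larger than the spread inside either group. By log2 ratio *Rgs2* ranked 182 of 15181 from the lowest. On chromosome 1 of GRCm39 the gene spans 143875076 to 143879899 on the minus strand. Its exons share 411 bases with *Gm41964*, a noncoding gene on the opposite strand, and the sources do not say whether the counting used strand.

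*Rgs6* encodes an R7 protein that works as a pair with the beta subunit Gnb5. In mouse atria and pacemaker tissue it is known for shortening the muscarinic signal to the potassium channel encoded by *Kcnj3* and *Kcnj5*. Its mean was 510 normalized counts in control ventricles and 190 in *Runx1* OE ventricles, a log2 ratio of -1.43. A control library can have held between 481 and 530.2 normalized counts, and a *Runx1* OE library between 124 and 272. Here too the groups did not overlap, and the highest *Runx1* OE library reached at most 56.5% of the lowest control. The SD on the log2 scale was between 0.27 and 0.40 among *Runx1* OE libraries and between 0.07 and 0.10 among controls. *Rgs6* ranked 64 of 15181 from the lowest log2 ratio, and 98.7% of these genes had a smaller difference in either direction. The gene spans 82635066 to 83208830 on the plus strand of chromosome 12 of GRCm39. Its exons share 77 bases with *Gm29530* and 27 bases with *Gm60071*, noncoding genes on the opposite strand.

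**Figure D1:**
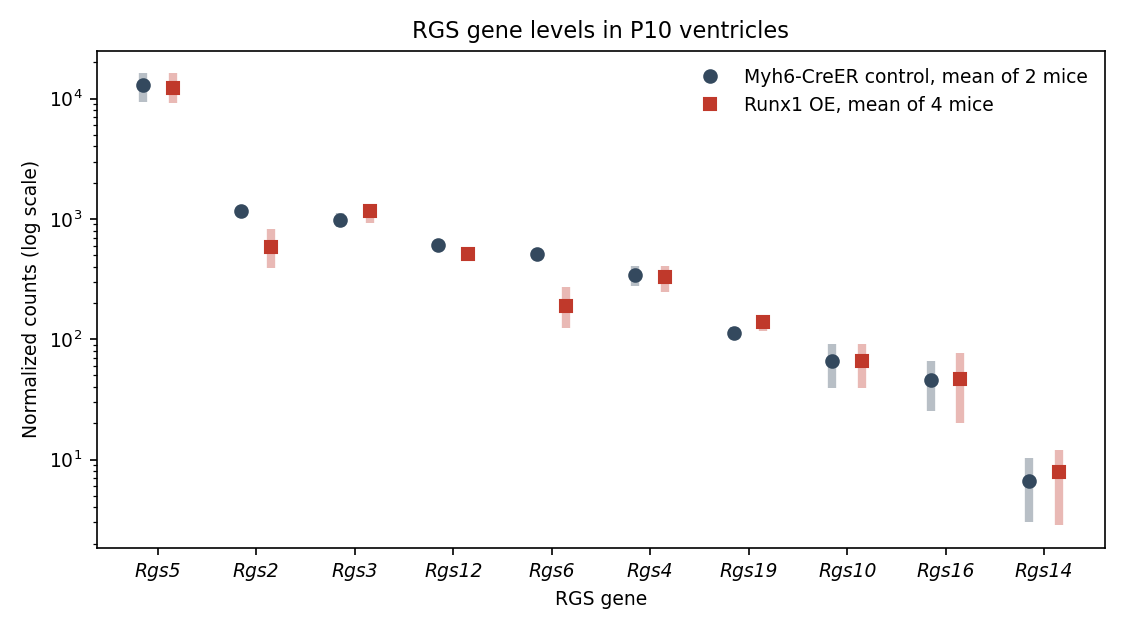
Levels of the 10 RGS genes in normalized counts (log axis), ordered by the control mean. Points are the authors' means of 2 control and 4 *Runx1* OE mice, and shaded bars run from the lowest to the highest value a single library of that group can have held. The bars of *Rgs2* and *Rgs6* are apart between the groups, while those of *Rgs5*, *Rgs4*, *Rgs10*, *Rgs16* and *Rgs14* cover each other.

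The other R4 genes differed less. *Rgs5*, known as a gene of pericytes and vascular smooth muscle, was the most abundant RGS gene, with means of 12953 normalized counts in control and 12202 in *Runx1* OE ventricles. A control library can have held from 9426 to 16220 normalized counts and a *Runx1* OE library from 9196 to 16220, so the groups overlapped. *Rgs5* alone made up 77.2% of the summed control means of the 10 genes and 80.1% of the summed *Runx1* OE means. *Rgs4*, whose protein acts on alpha i and alpha q subunits and which lies 44.2 kb from *Rgs5* on chromosome 1, had means of 344 and 326 normalized counts. A library held between 277 and 405 normalized counts of *Rgs4* in the control group and between 247 and 405 in the *Runx1* OE group. The log2 ratios of the neighbours were -0.09 for *Rgs5* and -0.08 for *Rgs4*, and in neither gene can the group that held the highest library be told.

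*Rgs3*, which encodes a large R4 protein with several isoforms, had means of 978 normalized counts in control and 1161 in *Runx1* OE ventricles. The log2 ratio was 0.25, and the highest library, at 1335 normalized counts, was a *Runx1* OE library. A control library can have held between 853 and 1122 normalized counts and the lowest *Runx1* OE library between 929 and 1107, so whether the groups overlapped cannot be told. Of the 31-base stretches in *Rgs3* transcripts, 12.3% also occur on the same strand in another gene, more of them in *Gm5763* than in any other gene, so part of its count may be shared. *Rgs16*, another R4 gene, had means of 45.5 and 47.1 normalized counts. Its spread was wide, since a *Runx1* OE library can have held from 20.03 to 77.0 normalized counts and a control library from 25.5 to 65.5. The exons of *Rgs16* share 18.7% of their bases with *Gm28513* on the opposite strand.

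Among the R12 genes, *Rgs12* had means of 605 normalized counts in control and 508 in *Runx1* OE ventricles and a log2 ratio of -0.25. A *Runx1* OE library can have held between 474 and 548.48 normalized counts and a control library between 548.55 and 648, so the groups were separate only at the margin. Where the group sums were allowed to be off by 2% in place of 1%, a setting chosen after seeing the data, the limits of *Rgs12* crossed and its separation could not be told. *Rgs12* encodes a large protein with further domains, among them the Ras-binding and GoLoco regions it shares with *Rgs14*. *Rgs10*, whose small protein consists of little more than the RGS domain, had a mean of 66.0 normalized counts in both groups. Its libraries can have held from 39.3 to 92.0 normalized counts in either group, so the equal means leave room for a wide spread. *Rgs14* had means of 6.62 normalized counts in control and 7.91 in *Runx1* OE ventricles, with limits of 3.05 to 10.2 and 2.85 to 12.

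*Rgs19*, the RZ gene, encodes a protein first named for its binding to an alpha i subunit. Its mean was 113 normalized counts in control and 140 in *Runx1* OE ventricles, and its log2 ratio of 0.30 was the highest of the 9 genes. A control library can have held between 102 and 126 normalized counts and a *Runx1* OE library between 117 and 159, so whether the groups overlapped cannot be told. Its exons share 15.8% of their bases with *Tcea2* on the opposite strand, whose means were 74.6 and 61.1 normalized counts.

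Seen together, 3 of 9 RGS genes had lower levels with no overlap of the groups, namely *Rgs2*, *Rgs6* and *Rgs12*, and none had higher levels with no overlap. Of all 15181 genes, 5.83% were lower and 6.26% higher with no overlap. The median log2 ratio was -0.08 over the 9 RGS genes and 0.01 over all genes, with 6 of the 9 below 0. The summed means of the 10 genes were 16775 normalized counts in control and 15229 in *Runx1* OE ventricles. Without *Rgs5*, the sums were 3823 and 3027.

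**Figure D2:**
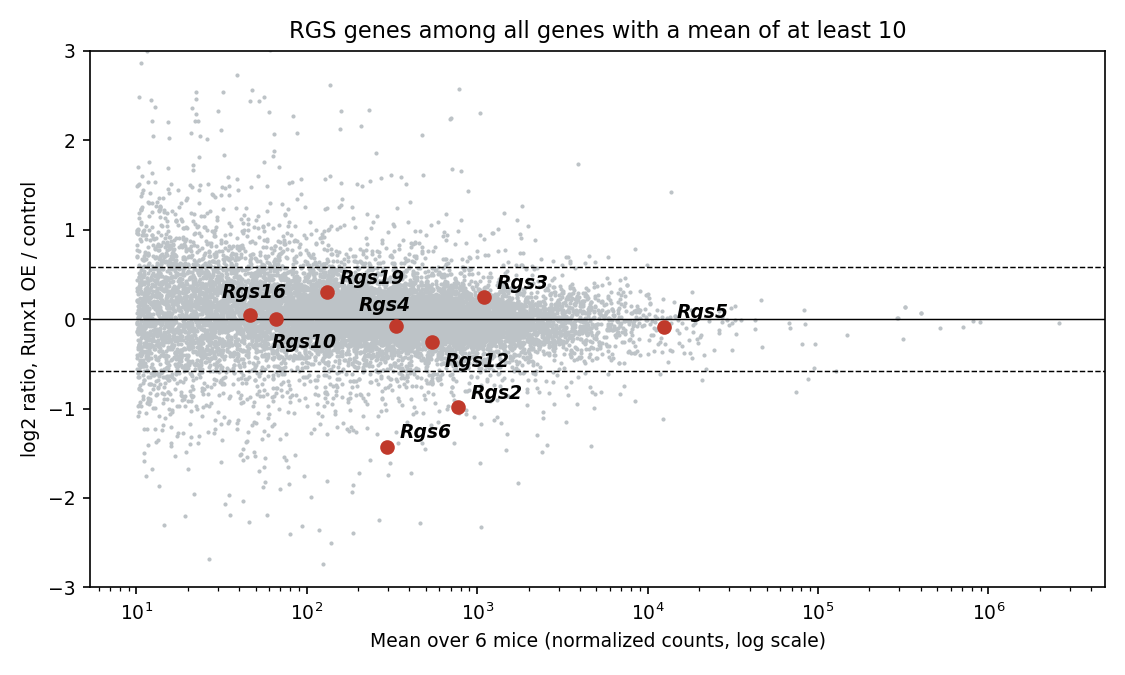
Log2 ratio of *Runx1* OE to control means against the mean over 6 mice in normalized counts (log axis), for genes that reached a mean of 10. Red points are the 9 RGS genes, dashed lines mark 1.5-fold, and 34 genes lie beyond the vertical axis. *Rgs2* and *Rgs6* lie below the lower line, at -0.99 and -1.43, and the other 7 lie between the lines.

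The order of the RGS genes by level per length was dominated by *Rgs5*. Per kilobase of annotated exon, the control means were 2107 normalized counts for *Rgs5*, 318 for *Rgs2*, 111 for *Rgs4*, 90.1 for *Rgs3* and 70.5 for *Rgs12*. *Rgs6*, *Rgs19*, *Rgs10*, *Rgs16* and *Rgs14* followed with 50.1, 39.9, 29.6, 19.3 and 0.756. In *Runx1* OE ventricles, *Rgs6* had 18.6 normalized counts per kilobase, below *Rgs16* at 19.98, whereas *Rgs2* remained second at 160. These levels use all annotated exons of a gene, so a gene with many unused isoforms appears lower than it is.

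The receptor, potassium channel subunits and beta subunit linked to *Rgs6* in atrial tissue were not all at least 1.5-fold lower. *Chrm2*, the muscarinic receptor of heart muscle, had means of 1735 normalized counts in control and 924 in *Runx1* OE ventricles, a log2 ratio of -0.91. *Kcnj3* had means of 550 and 229 normalized counts, a log2 ratio of -1.26. The limits of both genes were apart, with *Chrm2* at 1674 or more in controls and 1323 or less in *Runx1* OE libraries. For *Kcnj3*, controls held at least 538 and *Runx1* OE libraries at most 349.8 normalized counts. *Kcnj5*, the partner channel subunit, had means of 1451 and 1243, a log2 ratio of -0.22, and its separation could not be told. *Gnb5*, the beta subunit that pairs with R7 proteins, had means of 450.1 and 463 normalized counts, a log2 ratio of 0.04, with overlapping groups.

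G protein subunits included the genes with the highest ratios on the pathway lists. *Gnao1*, the alpha o subunit, had means of 288 normalized counts in control and 921 in *Runx1* OE ventricles, a log2 ratio of 1.68, and was the 1 of 12 alpha subunit genes past 1.5-fold. *Gnaq*, the alpha q subunit on which *Rgs2* acts, had means of 742 and 692 normalized counts, and was added for that link after its values were seen. *Gng2* had means of 203 and 504 normalized counts and *Gnb3* of 50.1 and 103, log2 ratios of 1.31 and 1.04, as 2 of 13 beta and gamma subunit genes past 1.5-fold. The groups of *Gnao1*, *Gng2* and *Gnb3* did not overlap. The median log2 ratio was 0.03 over the alpha subunits and 0.13 over the beta and gamma subunits, of which 12 of 13 lay above 0, as did 7872 of all 15181 genes. For comparison with these counts, 5.49% of all genes were at least 1.5-fold higher.

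Among 20 cardiac G protein-coupled receptor genes, *S1pr1* was higher, and *Chrm2* and *Adra1d* were lower by at least 1.5-fold. By that fold, 5.49% of all 15181 genes were higher and 3.96% lower. *S1pr1*, a sphingosine 1-phosphate receptor of endothelium, had means of 2008 normalized counts in control and 3155 in *Runx1* OE ventricles, and *Adra1d*, an alpha-1 adrenergic receptor gene, had 59.3 and 36.2. Of the 20 receptor genes, 11 had log2 ratios below 0, as did 7309 of all 15181 genes. Those that signal mainly through alpha q were not a planned list and were grouped after their values were seen. Their log2 ratios were -0.71 for *Adra1d*, -0.55 for the endothelin receptor gene *Ednra* and -0.49 for the adrenergic *Adra1b*. *Adra1a*, with a mean of only 18.3 normalized counts over all libraries and overlapping groups, had -0.34. The angiotensin receptor gene *Agtr1a* had -0.24 and the muscarinic *Chrm3* -0.03, while the endothelin receptor gene *Ednrb* had 0.25. The groups of *Adra1d* and *Ednra* did not overlap and those of *Chrm3* did. For *Adra1b*, *Agtr1a* and *Ednrb* this cannot be told. Of 7 genes of receptor kinases and arrestins, *Grk5* was the 1 past the fold, with means of 677 and 439 normalized counts and a log2 ratio of -0.63. Of 17 effector genes, *Plcb4*, a phospholipase C activated by alpha q, and *Kalrn*, a guanine nucleotide exchange factor, were higher, at log2 ratios of 0.76 and 0.73, and *Kcnj3* was lower. None of 13 other genes with an RGS-like domain or partner role, and none of 7 exchange and dissociation regulators, was past 1.5-fold. *Rgs7bp*, which anchors R7 proteins to the membrane, had means of 179 and 135 normalized counts and a log2 ratio of -0.41.

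**Figure D3:**
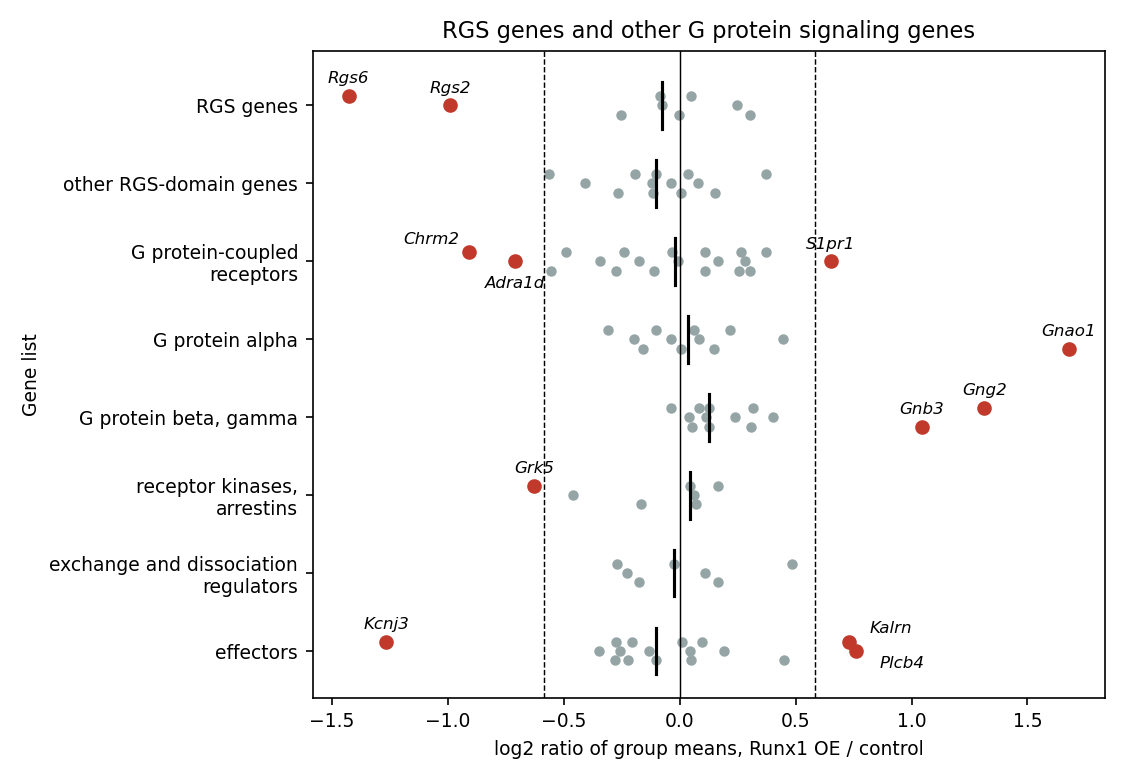
Log2 ratios of *Runx1* OE to control means for the 9 RGS genes and 7 lists of other genes of G protein signaling whose mean reached 10 normalized counts. Each point is a gene, black bars are list medians, dashed lines mark 1.5-fold and red points with names lie beyond them. *Rgs6*, *Rgs2* and *Kcnj3* lie at the far left and *Gnao1*, *Gng2* and *Gnb3* at the far right.

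Markers of other cell types were read beside the RGS genes. Of all 15181 genes, 3.96% were at least 1.5-fold lower, 5.49% at least 1.5-fold higher and 7309 below 0. Of 8 pericyte markers, 2 were at least 1.5-fold lower, *Vtn* and *Abcc9* at log2 ratios of -0.89 and -0.82, and 6 were below 0. Their summed means were 13064 normalized counts in control and 9315 in *Runx1* OE ventricles, a log2 ratio of -0.49, beside -0.09 for *Rgs5*. Most of this difference came from *Abcc9*, with means of 6680 and 3783 normalized counts, and the median log2 ratio of the 8 markers was -0.16. Which cells of the whole tissue held the *Abcc9* RNA was not measured. The 6 smooth muscle markers had summed means of 6769 and 5266, of which *Acta2* alone had 5739 and 4184, and log2 ratios on both sides of 0, with *Tagln* at 0.57 and *Cnn1* at 0.34. Their median log2 ratio was -0.20, and the 7 endothelial markers had summed means of 20573 and 18842. The log2 ratio of the summed means was 0.03 for fibroblast, 0.09 for macrophage and leukocyte and 0.14 for erythroid and platelet markers. The 8 cardiomyocyte markers, which checked the labelled tissue, had summed means of 574644 and 485341 normalized counts. Of these, *Myh6* alone had 164720 and 110044. The median log2 ratio of the 8 was -0.24, and 6 were below 0. *Ryr2* was lowest at -0.75, and whether its groups overlapped cannot be told. The 2 above 0 were *Myl2* at 0.10 and *Tnni3* at 0.03. Of 5 atrial markers, 4 were at least 1.5-fold higher, *Nppa*, *Myl7*, *Myl4* and *Sln*, with summed means of 906 and 2266 for the 5. A single library can have held up to 54.0% of the *Runx1* OE total of *Nppa*, 50.4% of that of *Myl4* and 50.8% of that of *Myl7*, and whether the groups of *Myl4* and *Myl7* overlapped cannot be told. With each gene's highest *Runx1* OE value taken out at its upper limit, a setting chosen after seeing the data, the log2 ratios were 1.60 for *Nppa*, 0.91 for *Myl4*, 1.15 for *Myl7* and 2.27 for *Sln*. For *Sln*, no limits of single libraries were obtained, so whether its groups overlapped was not determined. The remaining atrial marker, *Nr2f2*, had a log2 ratio of -0.02. According to the study, the atria and outflow tract were taken off before RNA was extracted. Whether any atrial tissue had a part in the values of *Rgs6* and *Kcnj3* was not tested. None of the markers named here had a group mean of 0, and the part of cell composition in the RGS values was not tested.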

How the data were processed

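Oligo dT libraries of ventricular RNA were sequenced by a service provider. By the study's methods, the authors aligned reads to mm39 with STAR, quantified Ensembl transcripts with Partek E/M, normalized by the median ratio and ran DESeq2, whereas HISAT2 and mm9 are named in the submitters' processing notes. The authors' deposited signal is a normalized count. The deposited table gives the authors' mean of each group, and the sum, the maximum and the geometric mean over 6 libraries. Its p-values, adjusted p-values, ratios and fold changes with their limits are the authors' own comparison and were not used. The 6 columns of single libraries were not used, because no label pairs their names with a sample. Samples were grouped by the labels.

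The planned limma fit on single libraries was therefore replaced by its planned fallback, the log2 ratio of the authors' means without a test and a fold of 1.5, for genes whose mean reached 10. An exact permutation test of 2 against 4 libraries could not have given a p below 0.0667. For each gene, all sets of 4 and 2 library values that fit the group sums within 1%, the maximum and the geometric mean were sought on a grid, which gives the limits of single libraries and says whether the groups can overlap. For the RGS genes a finer grid was used than for all genes, with the same calls under both. Among all genes whose mean reached 10, the deposited total differed from the group means by at most 0.755%, and 9 genes had no solution. No search was made for a gene whose geometric mean was not positive, and such a gene also counts as without a solution. In the RGS genes this gap was at most 0.237%, and every RGS gene had a solution. On 300 simulated cases the limits held the true values in 300. True values slightly outside a limit were accepted, as was a result that separation cannot be told. The simulated cases therefore do not check a margin as narrow as that of *Rgs12*. Which mice shared a litter is not stated.

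Every RGS gene is named. Of each pathway list, up to 4 genes with a mean of at least 50 and the largest absolute log2 ratio were named, with all past the fold where 5 or fewer were, and genes outside this rule were named after their values were seen. Members and lists were chosen with earlier results of these data known. Exons, overlaps and shared 31-base stretches came from GENCODE M39 on GRCm39, and start regions from RefSeq on GRCm38.p6. Python 3.11.15, numpy 2.4.6, pandas 2.3.3 and matplotlib 3.10.9 were used. Alternatives were other pseudocounts, folds, filters and scalings, and taking out each gene's highest *Runx1* OE value at its upper limit. The tolerance, the grid and the use of a single control were chosen after seeing the data.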

Additional observations from a re-analysis of the deposited data

How the results depend on the processing

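Under other pseudocounts and scalings and against the lowest or highest possible control alone, *Rgs2* and *Rgs6* stayed lower in *Runx1* OE ventricles and past 1.5-fold, with log2 ratios from -1.0 to -0.95 for *Rgs2* and from -1.48 to -1.34 for *Rgs6*. Taking out each gene's highest *Runx1* OE value at its upper limit gave -1.20 and -1.65, but this can only lower a ratio and says nothing about stability of a lower gene. At 2-fold, 1 RGS gene was lower in place of 2, *Rgs6*. *Rgs3*, *Rgs12* and *Rgs19* kept their sign, while *Rgs4*, *Rgs5*, *Rgs10*, *Rgs14* and *Rgs16* had a ratio on the other side of 0 under some alternative. With group sums allowed to be off by 0.5%, *Rgs19* was higher with no overlap, and with 2% *Rgs12* could not be told. Over all genes, the number lower by the fold was 601 and became 1148 without each gene's highest *Runx1* OE value, which may come from a different library in each gene, 178 at 2-fold, 1610 at the smallest fold tried, 1346 without the filter and 365 with a mean of at least 50. The number higher was 834 and became 505 with a pseudocount of 10, 501 without each gene's highest *Runx1* OE value, 270 at 2-fold, 2113 at the smallest fold, 2013 without the filter and 370.0 with a mean of at least 50. Setting the median ratio to 0 moved all log2 ratios by 0.01. No paired analysis was possible because no label pairs the single-library columns with samples, and which mice shared a litter is not stated. Because these columns could not be matched to samples by name, leaving out each replicate, limma and a count test were not run. The depth of single libraries is unknown here, and genes of few counts, such as *Rgs14*, have the widest limits.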
